A study of Mus musculus with 4 samples.

Results

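The receptors for the constant (Fc) part of IgG, with their shared signalling chain and the neonatal Fc receptor, were followed in alveolar macrophages, phagocytes that live in the airspaces of the lung. The set is 6 genes fixed by name, Fcgr1, Fcgr2b, Fcgr3, Fcgr4, Fcer1g and Fcgrt, out of 18782 genes tested. Each had 1 probe set annotated with its symbol alone and none shared with another gene, so all 6 were measured and no member was lost to a filter.

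Fc gamma receptors bind antibody that coats particles or forms complexes and thereby let macrophages take them up. In the mouse, the products of Fcgr1, Fcgr3 and Fcgr4 are activating: they sit in the membrane with the common gamma chain, made by Fcer1g, whose immunoreceptor tyrosine-based activation motif (ITAM) recruits the kinase Syk. The product of Fcgr2b is inhibitory and carries an inhibitory motif (ITIM) in its own tail, which recruits the lipid phosphatase SHIP, so the response to an immune complex is set by activating and inhibitory receptors engaged together. Fcgrt encodes the heavy chain of FcRn, which pairs with beta-2-microglobulin, binds IgG in acid endosomes and returns it to the cell surface instead of letting it be degraded.

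The cells came from adult C57BL/6 mice. WT mice were homozygous for a floxed Pparg allele (PPARg fl/fl) with no Cre named, and KO mice carried the same floxed alleles with CD11cCre, a Cre under the CD11c promoter that acts in alveolar macrophages but also in other CD11c-expressing cells such as dendritic cells. There were 2 arrays per genotype, each from a pool of cells from 2 mice, which the labels call biological replicates. WT cells were sorted as CD11b-low and KO cells as CD11b-high, otherwise with the same live, CD45, CD11c, autofluorescence and Siglec-F gates, and the labels describe the KO cells as arrested and immature. Genotype, gate and maturity therefore cannot be told apart in any difference below. Values are log2 expression after robust multi-array averaging (RMA), with a median of 3.14 on each array.

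The labelled cell type was checked against its markers. Of 6 macrophage markers, 2 were called higher in KO, Csf1r (0.84 ± 0.11) and Cd14 (0.74 ± 0.13). The Cd14 call was lost when either KO array was dropped. Mertk was the 1 called lower (-0.48 ± 0.11, a call lost with any 1 array dropped). The other macrophage markers, Adgre1, Cd68 and Lyz2, were not called and lay between 9.48 (Adgre1) and 11.53 (Lyz2) on all 4 arrays, and the alveolar macrophage genes Chil3, Plet1 and Car4 between 10.15 (Car4) and 11.19 (Chil3). Of 7 measured alveolar macrophage markers, 3 were called lower in KO (Siglecf, Fabp1 and Krt79) and 0 higher. At an unadjusted p under 0.05 in limma, 5 were lower, with Car4 and Marco added, and 0 higher. Among all 18782 genes, 5006 passed that threshold in either direction. Pparg itself read 9.69 and 9.75 in WT and 9.59 and 9.73 in KO, which does not check the genotype because the position of its probes relative to the deleted exons is not given in the sources used here. Itgam, the CD11b gene, was higher in KO by 5.76, as the gates were drawn.

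The start regions of the 4 Fc gamma receptor genes are shown because members of this family that lie next to each other moved in opposite directions. Each is a 300-base window, 250 bases before and 50 after the annotated start, from RefSeq on GRCm38.p6, written 5′ to 3′ along the gene. Capitals mark matches, on either strand, to 4 short motifs: GAGGAA (bound by the myeloid factor PU.1), TTCNNNGAA (the GAS element of STAT factors), GAAANNGAA (an element of interferon regulatory factors, IRF) and AGGTCA (the half-site of nuclear receptors such as PPARγ). No matches overlapped each other. Fcgr4 is at chr1:171018676-171018975 on the plus strand, and the others are on the minus strand: Fcgr1 at chr3:96293920-96294219, Fcgr3 at chr1:171059354-171059653 and Fcgr2b at chr1:170976022-170976321.
Fcgr4: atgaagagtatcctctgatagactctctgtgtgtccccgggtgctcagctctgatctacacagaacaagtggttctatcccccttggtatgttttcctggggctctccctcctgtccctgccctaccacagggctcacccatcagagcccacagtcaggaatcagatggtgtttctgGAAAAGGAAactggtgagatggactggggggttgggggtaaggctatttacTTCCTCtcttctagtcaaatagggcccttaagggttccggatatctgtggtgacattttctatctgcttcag
Fcgr1: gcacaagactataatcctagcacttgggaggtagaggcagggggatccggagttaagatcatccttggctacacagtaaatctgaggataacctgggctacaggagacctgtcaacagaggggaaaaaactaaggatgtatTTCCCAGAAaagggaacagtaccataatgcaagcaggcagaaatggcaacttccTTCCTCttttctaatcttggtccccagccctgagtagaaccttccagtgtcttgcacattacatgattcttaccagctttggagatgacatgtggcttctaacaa
Fcgr3: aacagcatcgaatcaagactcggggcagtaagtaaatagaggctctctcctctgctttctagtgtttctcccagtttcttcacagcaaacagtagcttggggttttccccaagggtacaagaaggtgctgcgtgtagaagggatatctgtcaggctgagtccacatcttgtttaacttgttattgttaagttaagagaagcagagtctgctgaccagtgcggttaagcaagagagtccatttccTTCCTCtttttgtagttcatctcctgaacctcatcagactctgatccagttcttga
Fcgr2b: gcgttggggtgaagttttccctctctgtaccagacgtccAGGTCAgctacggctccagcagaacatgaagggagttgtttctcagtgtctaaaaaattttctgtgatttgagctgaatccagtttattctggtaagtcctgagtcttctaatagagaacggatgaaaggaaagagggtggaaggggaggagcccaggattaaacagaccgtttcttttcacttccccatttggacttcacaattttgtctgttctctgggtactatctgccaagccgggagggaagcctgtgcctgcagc

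All 6 members had a window in the table, with 2 entries for Fcgr3, of which the first was used. The PU.1 letters occurred in 3 of the 6, Fcgr1, Fcgr3 and Fcgr4, starting at base -55 (Fcgr1), -6 (Fcgr3) and -22 (Fcgr4), where -1 is the base before the start. They occur in 28.3% of all 32851 windows. The GAS letters were found in Fcgr1 at base -109 (8.3% of windows) and the IRF letters in Fcgr4 at base -73 (8.56% of windows). The AGGTCA letters were found in Fcgr2b at base -211 (16.3% of windows). The windows of Fcer1g and Fcgrt held none of the 4.

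KO macrophages had far less Fcgr4 and Fcgrt transcript, somewhat less Fcgr1, more Fcgr2b and Fcgr3, and a level of Fcer1g that was not called different. By limma with Benjamini-Hochberg adjustment over all genes, 3 of the 6 members were lower (6.86% of all genes were), 2 were higher (7.41% of all genes were) and 1 was not called. In all, 5 of 6 were called, against 14.3% of all genes. The arrays of the genotypes did not overlap in any of the 6 members, but they also did not overlap in 55.3% of all genes, so that property says little here. The activating class was split, with Fcgr4 and Fcgr1 lower and Fcgr3 higher. In sorted bulk cells, less transcript in each cell and fewer cells carrying it cannot be told apart.

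**Figure D1:**
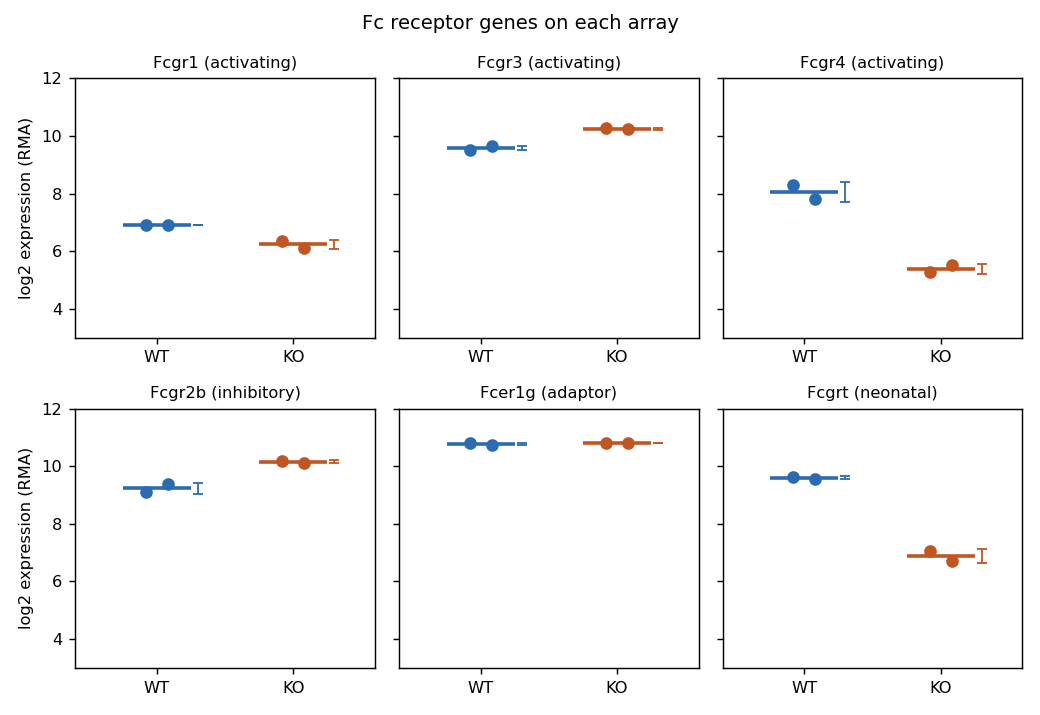
Log2 expression (RMA) of each Fc receptor gene on the 4 arrays, WT in blue and KO in orange; points are arrays, horizontal lines the group means and the bars beside them the SD (n = 2). Fcgr4 and Fcgrt drop in KO to 5.40 and 6.88, Fcgr2b and Fcgr3 rise to 10.2 and 10.3, and the Fcer1g points of both groups lie between 10.74 and 10.82.

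Among the activating receptors, Fcgr4, which encodes a receptor that prefers IgG2a and IgG2b, changed most. It read 8.30 and 7.81 in WT replicates 1 and 2 and 5.27 and 5.52 in KO replicates 1 and 2. The KO arrays lay 2.29 below the lower WT array, while the arrays of a genotype differed by 0.50 (WT) and 0.25 (KO). The difference, KO minus WT, was -2.66 ± 0.18 (SE; 95% confidence interval -3.11 to -2.21; limma adjusted p = 4.61e-04), a 6.31-fold lower level, and it ranked 37 among the largest decreases of all genes. Of all genes, 0.836% had a larger absolute difference. With any 1 array left out the difference stayed between -2.91 and -2.41, with adjusted p of at most 0.00805.

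Fcgr1 encodes the high-affinity receptor CD64, a marker of macrophages among lung phagocytes. It read 6.90 on each WT array and 6.35 and 6.13 on the KO arrays. Both KO arrays were lower, and the gap of 0.55 to the lower WT array was larger than the 0.22 between the KO arrays. Fcgr1 differed by -0.66 ± 0.11 (SE; 95% confidence interval -0.93 to -0.39; limma adjusted p = 0.0127), a 1.58-fold lower level. This call was lost without KO replicate 2, where the difference was -0.55 (adjusted p = 0.0703).

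Fcgr3, which encodes the low-affinity activating receptor CD16, moved the other way. It read 9.53 and 9.65 in WT and 10.27 and 10.23 in KO. Both KO arrays were above both WT arrays, by at least 0.58. The difference was 0.66 ± 0.10 (SE; 95% confidence interval 0.42 to 0.90; limma adjusted p = 0.00784), a 1.58-fold higher level, the same size as the decrease of Fcgr1. The Fcgr3 call was lost without KO replicate 1 (difference 0.64, adjusted p = 0.0587).

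Fcgr2b, the only inhibitory receptor of the class, read 9.09 and 9.37 in WT and 10.19 and 10.12 in KO. The KO arrays lay close together and 0.75 above the higher WT array. Its difference was 0.92 ± 0.12 (SE; 95% confidence interval 0.62 to 1.23; limma adjusted p = 0.00517), a 1.90-fold higher level, and it held with any 1 array left out (adjusted p between 0.00410 and 0.0476). Fcgr2b and Fcgr3 encode very similar extracellular domains. Whether the probes of one detect the transcript of the other was not tested, since probe sequences were not used here. Tested against a difference of at least 0.5 on the log2 scale, neither increase was called, nor was the decrease of Fcgr1, while those of Fcgr4 and Fcgrt were.

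Fcer1g, the common gamma chain that the 3 activating receptors need to reach the surface and signal, read 10.80 and 10.74 in WT and 10.81 and 10.82 in KO. The KO arrays were above the WT arrays by only 0.01, less than the 0.06 between the WT arrays. The difference was 0.05 ± 0.09 (SE; adjusted p = 0.824), and its 95% confidence interval, -0.19 to 0.28, excluded a change as large as that of any other member. Its level was near the top of the scale, where array signal is compressed, and whether this hides a change was not tested.

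Fcgrt, the FcRn heavy chain, had the largest change of the 6. It read 9.64 and 9.56 in WT and 7.05 and 6.71 in KO. The KO arrays lay 2.51 below the lower WT array, and the arrays of a genotype differed by 0.08 (WT) and 0.34 (KO). The difference was -2.72 ± 0.14 (SE; 95% confidence interval -3.05 to -2.39; limma adjusted p = 1.44e-04), a 6.59-fold lower level, rank 34 among the decreases. B2m, its light chain partner, read between 11.01 and 11.08 on all 4 arrays and differed by 0.03 ± 0.09 (adjusted p = 0.888). B2m, like Fcer1g, lay near the top of the scale, and whether this hides a change was not tested.

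**Figure D2:**
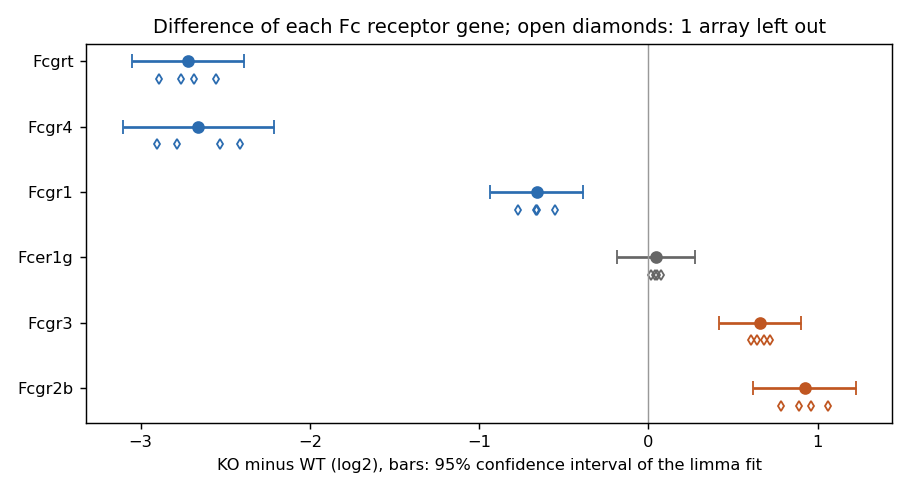
KO minus WT difference (log2) of each member with the 95% confidence interval of the limma fit; blue was called lower, orange higher and grey not called, and open diamonds are the differences with 1 array left out. The intervals of Fcgrt and Fcgr4 lie below -2, those of Fcgr3 and Fcgr2b above 0, and that of Fcer1g includes 0.

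Activating and inhibitory receptors were weighed within each array by subtracting the log2 value of Fcgr2b from that of an activating gene and setting the WT mean to 0, which compares changes and not levels of different probe sets. For Fcgr4 this index was 0.39 and -0.39 in WT and -3.74 and -3.42 in KO, a shift of -3.58 toward Fcgr2b. For Fcgr1 it was 0.14 and -0.14 in WT and -1.51 and -1.66 in KO, a shift of -1.58. For Fcgr3 it was 0.08 and -0.08 in WT and -0.28 and -0.25 in KO, a shift of only -0.26, since Fcgr3 rose nearly as much as Fcgr2b.

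The mean of the 3 activating genes relative to Fcgr2b was 0.21 and -0.21 in WT and -1.84 and -1.78 in KO. Every KO array lay below both WT arrays for each activating gene and for their mean (arrays of the genotypes did not overlap in 55.3% of single genes either). The mean index differed by -1.81 between the genotypes, 3.51-fold toward Fcgr2b, while the arrays of a genotype differed by at most 0.41. Within this mean the changes of Fcgr1 (-0.66) and Fcgr3 (0.66) cancelled. The shift of the mean therefore came from the fall of Fcgr4 and the rise of Fcgr2b. Relative to Fcgr2b, the 3 activating genes shifted in the same direction but unevenly (Fcgr4 -3.58, Fcgr1 -1.58, Fcgr3 -0.26). For Fcgr3 alone the shift of -0.26 was not much larger than the 0.17 between the WT arrays. The shift of the mean index was -1.60 without WT replicate 1 and -2.01 without WT replicate 2. No p is given for these indices, since they are built from genes chosen with results of these arrays known, and an exact permutation of 2 against 2 arrays cannot go below 0.333. The activating receptors also moved apart from each other: relative to Fcgr3, Fcgr4 shifted by -3.32 and Fcgr1 by -1.32.

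**Figure D3:**
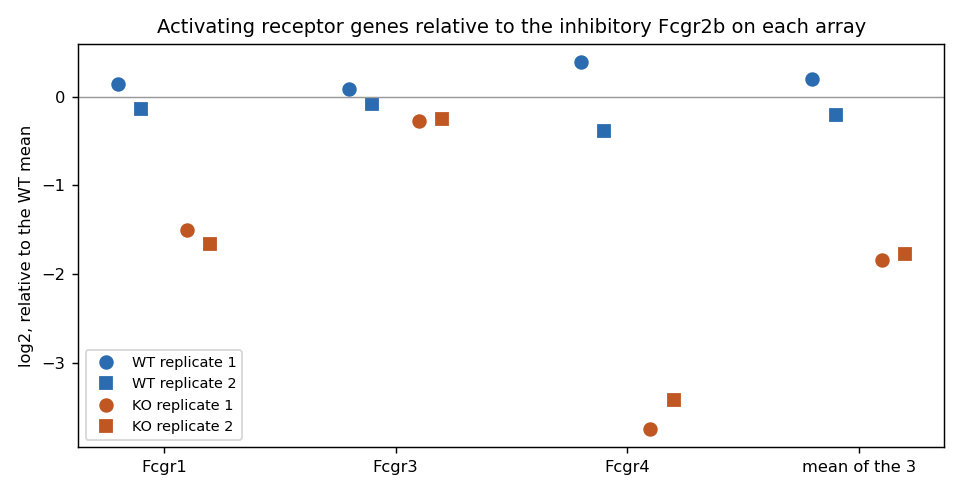
Log2 value of each activating receptor gene minus that of the inhibitory Fcgr2b, relative to the WT mean, on each array (WT blue, KO orange; circles replicate 1, squares replicate 2). KO arrays lie below WT arrays throughout, by 3.58 on average for Fcgr4 and by 0.26 for Fcgr3, with the mean of the 3 at the right.

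Of the changed members, 3 are neighbours. In the reference gene table the protein-coding genes of this stretch of mouse chromosome 1 follow in the order Fcrlb, Fcrla, Gm39701, Fcgr2b, Fcgr4 and Fcgr3, with Fcer1g further along, while Fcgr1 is on chromosome 3 and Fcgrt on chromosome 7. Fcgr4, the gene that fell, thus lies between 2 genes that rose, Fcgr2b and Fcgr3. The Fc receptor-like gene Fcrlb was also higher, reading 4.21 and 4.51 in WT and 6.10 and 5.51 in KO, a difference of 1.45 ± 0.21 (adjusted p = 0.00672). Its neighbour Fcrla stayed between 2.57 and 2.86 on all 4 arrays and was not called (0.13 ± 0.11, adjusted p = 0.556).

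Among the other Fc receptor and Fc receptor-like genes, 2 of 13 were higher, 0 lower and 11 not called. Over all genes 7.41% were higher and 6.86% lower. The median difference of the list was -0.0085, against -0.015 over all genes. At an unadjusted p under 0.05 in limma 1 was lower, Trim21, where 5006 of 18782 genes passed in either direction. Besides Fcrlb, Fcrls was higher, from 1.93 and 2.16 in WT to 3.67 and 3.14 in KO (1.37 ± 0.19, adjusted p = 0.00577). Fcrls starts below the array median, where fold changes can be understated. The high-affinity IgE receptor genes Fcer1a and Ms4a2 lay below 1.92 on every array, and the low-affinity IgE receptor gene Fcer2a read between 2.24 and 2.51. Trim21, a cytosolic receptor for antibody-coated particles, read 5.14 and 5.30 in WT and 4.99 and 4.84 in KO and was not called (adjusted p = 0.138).

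Of 5 genes for partner chains of Fc and related receptors, 0 were called, with differences from -0.10 to 0.03. At an unadjusted p under 0.05 in limma, 0 of these 5 passed as well, against 5006 of all 18782 genes. Besides B2m they included Tyrobp, the ITAM adaptor DAP12, which read between 10.67 and 10.72 on all arrays (-0.03 ± 0.09, adjusted p = 0.908). Both ITAM adaptors of these cells, Fcer1g and Tyrobp, were thus measured at high signal in both genotypes without a called difference. Ms4a2 differed by -0.09 ± 0.09 and the T cell receptor zeta chain gene Cd247 by -0.10 ± 0.14.

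Downstream of the ITAM, 7 of 22 measured signalling genes were higher, 2 lower and 13 not called (median -0.06). The shares over all genes were 7.41% higher and 6.86% lower. Blnk and Lat2, which encode adaptors that gather signalling enzymes, were higher by 3.93 ± 0.10 (Blnk; adjusted p = 1.70e-05) and 2.99 ± 0.11 (Lat2; adjusted p = 5.95e-05). Blnk read 2.83 and 2.94 in WT, below the array median, and 6.79 and 6.84 in KO. Vav3, which acts downstream of Syk, was higher by 0.83 ± 0.09, and Pik3ap1, an adaptor for phosphoinositide 3-kinase, was lower by -1.35 ± 0.13. The kinase gene Syk itself read 9.01 and 9.06 in WT and 8.82 and 8.90 in KO and was not called (-0.18 ± 0.10, adjusted p = 0.324). The other lower gene was the adaptor gene Sh3bp2 (-0.80 ± 0.14). The remaining higher genes were Prkcd (0.75 ± 0.10), Pik3cd (0.61 ± 0.10), Pik3cb (0.60 ± 0.10) and Src (2.60 ± 0.44), which read 3.35 and 4.82 in WT and lost its call if either KO array was dropped. Leaving out KO replicate 1 gave 4 higher and 1 lower, and leaving out WT replicate 1 gave 1 lower. With an intensity trend in limma 5 genes of this list were lower, and with dim genes left out 4.

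Of 13 genes listed under inhibitory signalling, not all of which act only to inhibit, 2 were higher, 6 lower and 5 not called (median -0.06). The shares over all genes were 7.41% higher and 6.86% lower. Pag1 and Csk, which together hold Src-family kinases inactive, were lower by -1.08 ± 0.09 (Pag1; adjusted p = 0.00105) and -0.66 ± 0.10 (Csk; adjusted p = 0.00858). The phosphatase gene Ubash3b was lower by -0.80 ± 0.11 and the adaptor gene Dok3 by -0.61 ± 0.11. The other 2 lower genes were Ptprc, which encodes the gated protein CD45, and Ptpn6, which encodes the phosphatase SHP-1. Inpp5d, the SHIP phosphatase that Fcgr2b recruits, read 8.57 on each WT array and 8.81 and 8.95 in KO and was not called (0.31 ± 0.10, adjusted p = 0.106). Dok2 (0.67 ± 0.12) and Inppl1, a relative of SHIP (0.56 ± 0.11), were higher. These counts moved with single arrays. Dropping WT replicate 1 or KO replicate 1 gave 3 lower and 0 higher, dropping KO replicate 2 gave 1 lower (Pag1) and 0 higher, and dropping WT replicate 2 gave 5 lower and 1 higher.

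**Figure D4:**
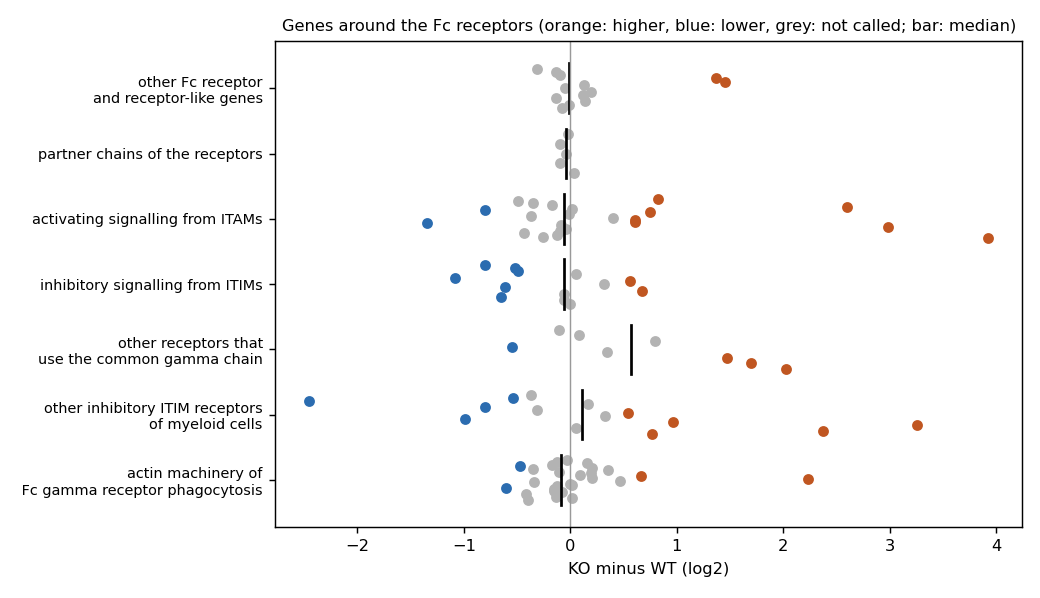
KO minus WT difference (log2) of each measured gene of 7 lists around the Fc receptors; orange points were called higher, blue lower and grey not called, and black bars are list medians. The largest differences are those of Blnk (3.93), Ceacam1 (3.26) and Lat2 (2.99) upward and Siglec1 (-2.45) downward.

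Of 8 measured receptor genes listed as sharing the common gamma chain, 3 were higher, 1 lower and 4 not called (median 0.57), where 7.41% of all genes were higher and 6.86% lower. The C-type lectin genes Clec4d and Clec4e, whose products recognise mycobacterial glycolipids, were higher by 1.70 ± 0.10 (Clec4d; adjusted p = 2.70e-04) and 1.48 ± 0.12 (Clec4e; adjusted p = 9.24e-04). Cd300lb, which is also known to use DAP12, was higher by 2.03 ± 0.27, with WT arrays apart at 4.69 and 5.58. Lilra5 was lower by -0.55 ± 0.09, a call lost when WT replicate 1 or either KO array was dropped.

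Of 14 myeloid receptors listed as inhibitory, 5 were higher, 4 lower and 5 not called (median 0.11), so members moved both ways. Over all genes 7.41% were higher and 6.86% lower. Cd300a was higher by 2.37 ± 0.18 (adjusted p = 6.35e-04), while Clec4a2 and Pilra were lower by -0.99 ± 0.10 (Clec4a2; adjusted p = 0.00159) and -0.80 ± 0.09 (Pilra; adjusted p = 0.00305). Siglec1, the largest decrease (-2.45 ± 0.13, adjusted p = 1.96e-04), encodes sialoadhesin, an adhesion receptor without an ITIM. Siglece was also lower (-0.54 ± 0.13), a call lost when either WT array or KO replicate 1 was dropped. The remaining higher genes were Ceacam1 (3.26 ± 0.47), Clec12a (0.96 ± 0.14), Cd200r1 (0.77 ± 0.09), whose product inhibits without an ITIM, and Lilrb4a (0.54 ± 0.10). Ceacam1 had WT arrays apart at 4.18 and 5.80, and its call was lost when either KO array was dropped. That of Lilrb4a was lost when WT replicate 1 or either KO array was dropped. Dropping KO replicate 1 left 2 higher, and dropping KO replicate 2 left 3.

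Of 28 measured genes of the actin and membrane machinery of IgG-dependent uptake, 2 were higher, 2 lower and 24 not called (median -0.09), close to the shares of all genes, of which 7.41% were higher and 6.86% lower. Marcks, which encodes a protein that binds actin and membranes, was higher by 2.23 ± 0.23 (adjusted p = 0.00183), and the NADPH oxidase subunit gene Ncf1 by 0.67 ± 0.11. Coro1a and Vasp, which encode actin regulators, were lower by -0.60 ± 0.10 (Coro1a) and -0.48 ± 0.10 (Vasp). Dropping KO replicate 2 left 1 higher gene, and dropping WT replicate 2 gave 3. Lower genes numbered 0 when either KO array was dropped, 1 when either WT array was, 6 with an intensity trend and 4 with dim genes left out.

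The 3 genes whose centred values over the 4 arrays lay nearest to Fcgr4, by Euclidean distance, were Prom1 (distance 0.12), Pnpla5 (0.13) and Nup210 (0.15). Nearest to Fcgrt were Clec4b1 (0.13), Perp (0.18) and Anln (0.22). Fcgr2b had Pkp4 (0.02), Ifngr2 (0.03) and Socs2 (0.04), Fcgr3 had Dnaja1, Cdc14a and Fbxo33 (0.03 to 0.04), and Fcgr1 had Ampd3, Cntln and Acvrl1 (0.03 to 0.06). With 4 arrays in 2 groups, this likeness rests mostly on the size of the difference between genotypes.

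Other cells that carry Fc receptors were followed through their markers, given as the range over arrays of the summed linear signal. Neutrophil markers (9 of 10 measured) summed to 282 to 460.2 in WT and 1076 to 1105 in KO, with Mmp8 and S100a8 higher and Csf3r lower. The rise of the sum was mostly that of Mmp8, a call lost when either KO array was dropped. The other 8 markers summed to 198 to 241 in WT and 165 to 170 in KO. The brightest of these 8 in WT was Csf3r, and the fall of that sum was its fall (7.08 and 7.57 in WT, 5.69 and 5.87 in KO). S100a8 rose from 3.65 and 3.43 in WT to 5.70 and 5.22 in KO. At an unadjusted p under 0.05 in limma, 5 neutrophil markers were higher and 2 lower, where 5006 of 18782 genes passed in either direction. The granule genes Ngp, Ltf and Camp lay below the array median on all arrays. Monocyte markers (8 of 10) summed to 1973 to 2044 in WT and 2178 to 2275 in KO, with 4 higher and 2 lower. Most of that sum was Nr4a1, which was not called, and without it the other 7 summed to 357 to 389 in WT and 503 to 565 in KO. The higher markers were Cx3cr1 (2.91 ± 0.16), Ccr2 (1.82 ± 0.34), Ace (0.96 ± 0.17) and Vcan (0.48 ± 0.11), of which Cx3cr1 alone kept its call when either KO array was dropped. The lower markers were Treml4 (-2.39 ± 0.31) and Spn (-0.85 ± 0.11). Interstitial macrophage markers (7 of 8) summed to 1568 to 1597 in WT and 1962 to 2185 in KO, with 5 higher and 1 lower. Most of the WT sum was Mrc1, the lower gene (-0.44 ± 0.09, a call lost with any 1 array dropped), and without it the other 6 summed to 44.9 to 47.5 in WT and 818 to 1064 in KO. The complement genes C1qb (6.48 ± 0.34), C1qc (4.84 ± 0.13) and C1qa (3.77 ± 0.12) and the chemokine receptor gene Cx3cr1 (2.91 ± 0.16) led the increases, and Lyve1 was the other higher gene. The part of these cells in the changes of Fcgr2b, Fcgr3 and Fcgr4 was not tested.

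Lymphocyte and granulocyte markers outside the neutrophil list were mostly dim. Of 8 B cell markers 5 lay below the array median on all arrays and 0 were called, with sums of 59.5 to 63.7 in WT and 57.7 to 60.3 in KO. For NK cells the number below the median was 6 of 7, with sums of 33.9 to 38.3 in WT and 32.5 to 33.6 in KO and 1 marker, Prf1, called lower. All 8 mast cell and basophil markers lay below the median, with sums of 34.3 to 35.4 in WT and 34.2 to 34.4 in KO. Of 7 endothelial markers 5 lay below it, with sums of 44.6 to 55.2 in WT and 43.3 to 49.2 in KO, and 0 were called. At an unadjusted p under 0.05 in limma, 0 B cell and 0 mast cell or basophil markers passed, and 2 endothelial markers were lower. That threshold was passed by 5006 of all 18782 genes. The eosinophil genes Prg2, Epx, Ccr3 and Il5ra read at most 2.02. Ear6 of that list was brighter, at 4.79 and 5.28 in WT and 5.32 and 2.93 in KO, and was not called. The change of the eosinophil list was that of Siglecf, with sums of 748 to 810.1 in WT and 111 to 119 in KO. Of 7 T cell markers 1 was higher and 1 lower (sums 53.7 to 59.1 in WT and 45.3 to 51.7 in KO). Of 8 dendritic cell markers 1 was higher, Cd209a (sums 101 to 114 in WT and 143 to 233 in KO). The rise of that sum was not that of Cd209a alone. Clec9a, which was not called, read 4.56 and 5.58 in WT and 5.79 and 6.99 in KO, above Cd209a on all 4 arrays. Of 8 lung epithelial markers 1 was lower (sums 85.2 to 205 in WT and 153 to 159 in KO).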

How the data were processed

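Per the submitters' processing notes, the authors made the deposited log2 values with RMA in R 2.15.2, which subtracts background, gives all arrays the same distribution and summarises probes per probe set. The sources used here do not give the RMA settings or the genome build. A change shared by most transcripts would not be seen. Of 28371 probe sets, 21158 had 1 gene symbol, and 1881 with several and 5332 with none were left out. For 1368 genes with several probe sets, the brightest on average was taken, which left 18782 genes.

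The genotypes were compared in limma 3.58.1 (R 4.3.3), with group as the only term, two-sided, with 2 residual and 4.16 prior degrees of freedom, and called at a Benjamini-Hochberg adjusted p under 0.05 over all genes. Differences are KO minus WT, with the SE of the fit. The WT arrays correlated at r = 0.995 and the KO arrays at 0.996 over genes, and arrays of different genotype at 0.967 to 0.975. The number of arrays limits the precision. P-values measure the spread between pools, not between single mice.

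The members and gene lists were chosen with earlier results of these data known. Besides the members, genes were named by a rule: the gate genes, up to 4 called genes of smallest p per list or 2 where none was called, the 3 nearest genes of each called member, and genes that complete a direction of 5 or fewer. Tyrobp, Trim21, Syk, Inpp5d, Fcrla, the IgE receptor genes, the cell type markers named and the genes taken out of marker sums were chosen after their values were seen. Of the pathway lists, 10 genes were not analysed here. Alternatives were other normalizations, filters, variance models, probe set rules, a replicate block and leaving out each array.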

Additional observations from a re-analysis of the deposited data

How the results depend on the processing

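The directions of the 5 called members were the same under all 13 alternatives of a difference, and of 72 member values outside the test without moderation 70 kept their side of the threshold. The exceptions were Fcgr1 without KO replicate 2 and Fcgr3 without KO replicate 1. The ordinary test without moderation, with 2 residual degrees of freedom, called 0 members higher and 0 lower after adjustment, and 3 of all 18782 genes. At an unadjusted p under 0.05 it gave 2 members higher and 3 lower, and 3637 of all genes in either direction. Against a difference of 0.5, limma called 0 members higher (1 at an unadjusted p under 0.05) and 2 lower. Among all genes it called 834 in either direction, and 1489 passed at an unadjusted p under 0.05. Leaving out 1 array gave 1 to 2 members higher and 2 to 3 lower. These fits assume that a lone array varies like the other group. The activating minus inhibitory shift ran from -2.01 to -1.60 with 1 array left out, and was -1.81 under quantile normalization. The labels give both genotypes replicate numbers 1 and 2 without saying that a number marks a shared batch, and deviations of same-numbered arrays correlated at -0.02 over genes. A replicate block left 2 members higher and 3 lower, and called 1309 genes higher and 1168 lower in place of 1391 and 1289. Over all genes, dropping KO replicate 1 gave 726 higher and 656 lower, dropping KO replicate 2 gave 816 and 647, and dropping WT replicate 1 gave 809 lower. The cause was not tested.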

Other observations

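WT replicate 2 lay nearer to the KO mean than WT replicate 1 did in 5 of 6 Fc receptor members, the 5 that were called. The same held in 69.1% of the 2680 called genes and in 55.1% of all genes. For Fcgr1 the WT arrays differed by only 0.004, so its place in this count carries little weight. Fcgr4 (7.81 against 8.30) and Fcgr2b (9.37 against 9.09) had the widest gaps between the WT arrays among the members. The neutrophil marker Mmp8 read 6.40 in WT replicate 1 and 7.78 in WT replicate 2, and 9.82 and 9.88 in KO. The monocyte marker Ccr2 read 4.49 and 5.58 in WT and 7.03 and 6.70 in KO. Other markers of these lists went the other way, with WT replicate 1 nearer to KO. Among them were S100a8 (3.65 and 3.43 in WT), Cxcr2 (4.77 and 3.92), Csf3r (7.08 and 7.57) and Cx3cr1 (3.85 and 3.54). Among the called monocyte markers, Ccr2, Ace, Vcan and Treml4 had WT replicate 2 nearer to KO, and Cx3cr1 and Spn had WT replicate 1 nearer. Among the called neutrophil markers, Mmp8 had WT replicate 2 nearer, and S100a8 and Csf3r had WT replicate 1 nearer. Markers of both lists thus went both ways.

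Between Fcgr3 and Fcer1g the reference gene table lists 7 other protein-coding genes, of which 5 were tested. Cfap126, next to Fcgr3, was lower by -0.60 ± 0.12 (limma adjusted p = 0.0230), with all arrays at or below 2.96, under the array median. The mitochondrial gene Sdhc differed by -0.20 ± 0.11 (adjusted p = 0.304), and Tomm40l, Pcp4l1 and Apoa2 were not called either.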
